A study of Mus musculus with 10 samples.

Results

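The nuclear genes for subunits of respiratory complexes III and IV and of ATP synthase were followed through 10 RNA sequencing libraries of mouse hematopoietic stem cells (HSCs), the marrow cells from which all blood lineages arise. Genes were taken by symbol (names that begin with Uqcr, Cox4 to Cox8 or Atp5, and Cyc1) where the deposited log2 value lay above 0 in at least 2 libraries, with pseudogenes left out. The symbols matched 45 of the 20270 genes in the table, of which 5 are named pseudogenes and 1 (Cox7a1) lay below the filter. That left 39 genes among the 15143 tested: 9 of complex III, 13 of complex IV, 15 of ATP synthase, and Atp5s and Atp5sl, which carry the Atp5 name but encode no core subunit. The gene nearest inside the filter was Cox4i2, at 1.43 to 4.07 CPM (read counts scaled to a common total and then matched by rank between libraries).

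The study compared Id1 knockout (KO, Id1-/-) with wild-type (WT, Id1+/+) HSCs, each in a condition labelled stressed and one labelled normal. Stressed cells gave 2 KO and 2 WT libraries, and normal cells gave 3 KO and 3 WT libraries. All carried the same background of strain (C57BL/6), tissue (bone marrow) and procedure: the cells were sorted by flow cytometry from first recipients of lineage-depleted donor marrow. The time after transplantation is 4 weeks in the sample labels and 6 weeks in the design text, the labels do not say what the stress was or how normal cells differed from it, and they do not say whether libraries came from separate animals or pools, so that a p-value here speaks only of how these libraries vary.

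Estimated depth, from the steps between low values, was 25700000 to 33000000 reads per library. That puts 1 CPM at 25.7 to 33.0 reads. It is a rough guide only, because values were matched by rank between libraries before deposit. The targeted gene went against its label: Id1 stood at 9.06 and 8.44 CPM in KO stressed and 1.28 and 4.39 CPM in WT stressed libraries, and at 13.2, 10.6 and 9.62 CPM in KO normal and 1.35, 1.72 and 3.17 CPM in WT normal libraries. Gene totals show neither the stretch of Id1 that was read nor whether the genotype labels were exchanged, which would turn the sign of every difference between KO and WT. KO and WT mean the libraries labelled so throughout. All 12 genes of the HSC marker list were present. The list also holds Cd34, Cd48 and Flt3, which serve to tell progenitors from HSCs, so its counts and sums do not measure HSC identity alone. The summed level of 10 myeloid progenitor and granulocyte markers was 115 to 123 CPM in KO stressed, 103 to 105 CPM in WT stressed, 133 to 139 CPM in KO normal and 94.8 to 99.7 CPM in WT normal libraries, the highest level of any of them other than Prtn3 was 24.7 CPM (Mpo), and Ltf was at the lowest value of the table in all 3 KO normal libraries. In bulk samples, fewer cells of a type and less RNA per cell cannot be told apart.

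Complex III takes electrons from ubiquinol, passes them to cytochrome c and pumps protons out of the mitochondrial matrix. Complex IV hands the electrons on to oxygen and pumps further protons, and ATP synthase lets the protons back through a rotating ring of c subunits to make ATP. Each is assembled from nuclear subunits and a few encoded in mitochondrial DNA (mtDNA), and long-term HSCs are known for relying on respiration less than their progeny do. Transcription of the nuclear subunit genes is known to be driven through NRF1, through the ETS factor GABP and through YY1.

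RefSeq promoter windows (build GRCm38.p6, 250 bases before to 50 bases after a start) were found for 31 of the 39 genes, in 35 windows. The ETS/GABP letters CCGGAAG, searched on both strands, were present in 10 genes and in 28.6% of their windows, against 8.86% of all 32851 windows. The NRF1 core GCATGCGC was present in 6 genes (17.1% of windows, against 2.71% of all), the YY1 letters AANATGGC in 6 (20%, against 6.05%) and the SP1 GC box GGGCGGGG in 6 (17.1%, against 17.6%). Of the 12 genes with a window that were called higher in KO normal than in WT normal HSCs, 6 held the ETS/GABP letters, against 4 of the 19 that were not called. A match is a string of letters and not a shown binding site.

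The stretches from 150 bases before to 30 bases after the start are shown for 5 such called genes that hold the ETS/GABP letters, and for Atp5b, a large subunit that was not called there. This choice went by call and by match. The 4 uncalled genes with the letters (Atp5h, Atp5j, Atp5k and Cox6a1) and the called genes without them are not shown. Nor is Atp5l, a called gene with the letters at positions -212 and 24 and an NRF1 core at position -240. Whether matches and calls go together was not tested. The stretches are written 5′ to 3′ on the gene's strand, and capitals mark NRF1, ETS/GABP and YY1 matches on either strand (GC boxes are not marked).
Atp5e (chr2:174464072-174464251, minus strand): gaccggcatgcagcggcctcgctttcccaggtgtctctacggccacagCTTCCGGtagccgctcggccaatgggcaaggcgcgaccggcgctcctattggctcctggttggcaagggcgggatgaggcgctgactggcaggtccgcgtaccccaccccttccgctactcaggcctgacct
Uqcr11 (chr10:80406792-80406971, minus strand): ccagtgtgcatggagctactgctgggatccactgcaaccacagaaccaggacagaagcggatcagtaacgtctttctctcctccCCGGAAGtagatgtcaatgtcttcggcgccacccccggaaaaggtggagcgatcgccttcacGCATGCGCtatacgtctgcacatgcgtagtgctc
Cox6b1 (chr7:30626085-30626264, minus strand): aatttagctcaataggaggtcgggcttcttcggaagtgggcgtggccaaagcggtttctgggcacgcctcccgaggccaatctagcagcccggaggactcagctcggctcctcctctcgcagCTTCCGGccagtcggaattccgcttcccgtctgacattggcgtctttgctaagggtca
Uqcrh (chr4:116075041-116075220, minus strand): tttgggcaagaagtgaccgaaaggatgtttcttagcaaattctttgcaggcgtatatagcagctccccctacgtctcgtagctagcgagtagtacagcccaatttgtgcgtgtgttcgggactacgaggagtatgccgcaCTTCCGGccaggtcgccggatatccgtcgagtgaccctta
Cox8a (chr19:7217587-7217766, minus strand): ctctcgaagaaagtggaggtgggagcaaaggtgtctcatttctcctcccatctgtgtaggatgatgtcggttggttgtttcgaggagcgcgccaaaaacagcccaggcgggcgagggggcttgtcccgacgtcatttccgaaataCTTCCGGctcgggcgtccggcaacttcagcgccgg
Atp5b (chr10:128083157-128083336, plus strand): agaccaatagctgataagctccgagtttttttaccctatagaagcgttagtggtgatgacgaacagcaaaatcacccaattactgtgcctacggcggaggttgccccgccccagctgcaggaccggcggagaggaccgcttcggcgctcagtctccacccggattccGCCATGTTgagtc
The ETS/GABP match of Cox8a and of Uqcrh began at positions -5 and -10 from the start, and that of Atp5e at position -102. Of the 6 stretches shown, that of Uqcr11 held an NRF1 core as well, at position -4. Atp5b had a YY1 match at position 17 and no ETS/GABP match.

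Most subunit genes lay higher in KO normal than in WT normal HSCs, and the difference was larger in genes with short coding sequences. By limma, 15 of the 39 were called higher in KO normal HSCs at an adjusted p under 0.05 over all 15143 genes, where 1.23% of all genes were called higher, and 0 were called lower, where 0.324% of all genes were. At an unadjusted p under 0.05 there were 31, against 13.9% of all genes. The difference was above 0 in 37 of 39 genes, with a median of 0.32 log2 units against -0.01 over all genes tested. In 31 genes every KO normal library lay above every WT normal library, against 10.9% of all genes. The calls were 4 of 9 in complex III, 8 of 13 in complex IV and 3 of 15 in ATP synthase.

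These differences went with gene length, and the trend of the values over length was not the same in all libraries. The coding length of the genes had a median of 387 bases, against 1383 bases over all genes tested, and all 1137 tested genes with at most 500 coding bases had a median difference of 0.21, against -0.03 in longer ones. When the trend of each library over the length of the principal transcript was removed, an alternative added after seeing the data, 1 of the 15 calls was left (Atp5f1), 33 of 39 differences were still above 0, and the median was 0.13. With the trend over total exonic length removed instead, 13 genes were called, of which 12 were among the 15 and 1 was not (Atp5g1), Cox8a, Cox7a2 and Cox5b lost their call, and the median was 0.28. The count was 9 without WT normal B, 8 without WT normal C, and 3 with no trend of the variance over the mean level. Counts over all genes under these alternatives are not given here, so a loss particular to the 39 genes cannot be read from them. The part of length in the result was not tested further, and the values that follow are those without removal unless length is named.

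**Figure D1:**
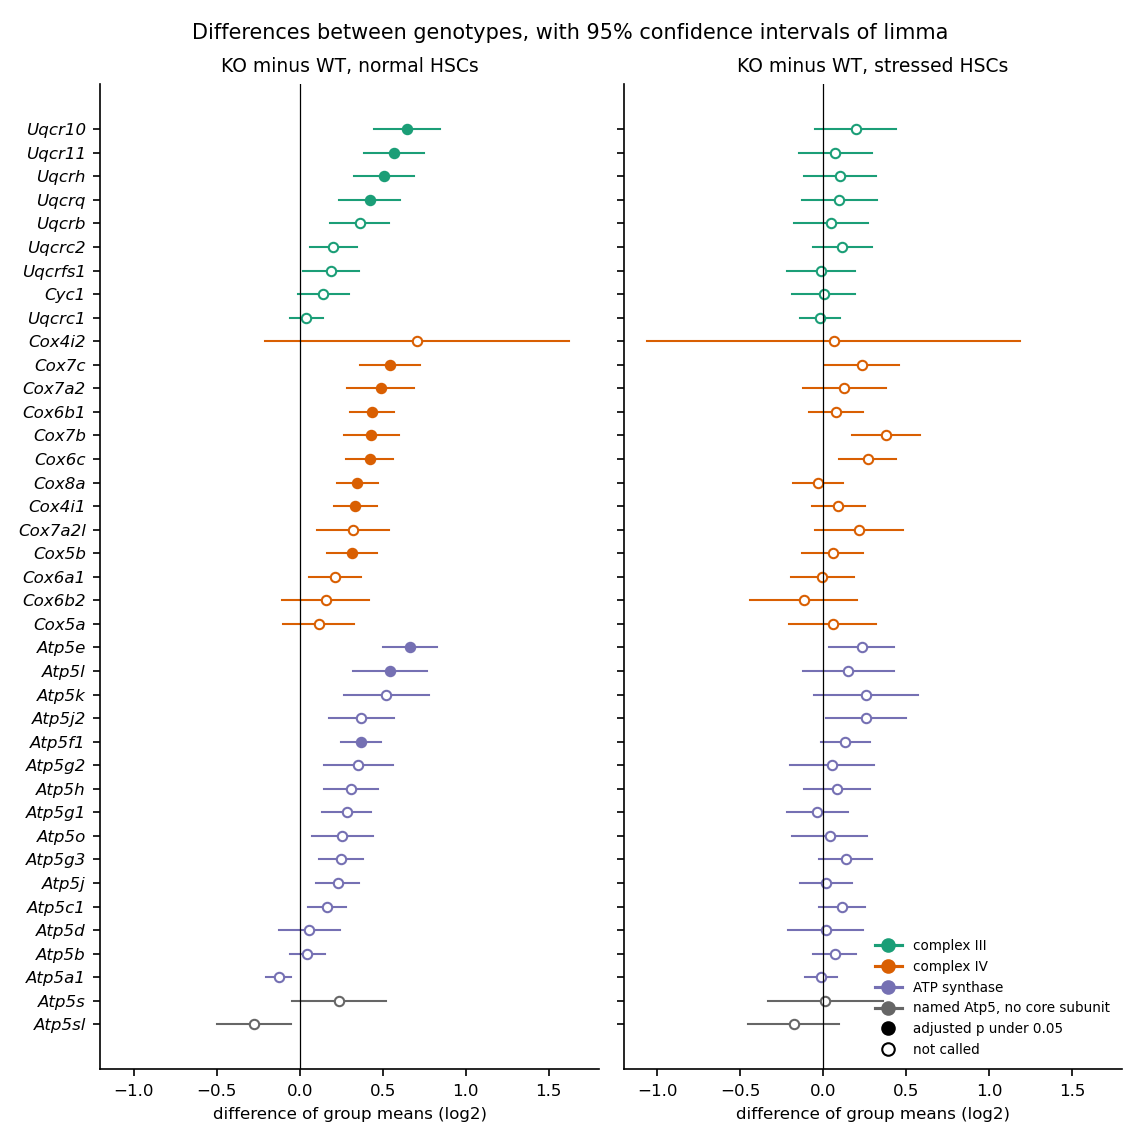
Difference between genotypes (KO minus WT, log2) of each of the 39 genes in normal HSCs (left) and stressed HSCs (right), with the 95% confidence interval of limma; colours give the complex and filled points are called at an adjusted p under 0.05. In normal HSCs 15 points are filled, all above 0, and in stressed HSCs 0 are.

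Within complex III, the called genes were small subunits that surround the catalytic core. Uqcr10 had 98.8, 98.2 and 112 CPM in KO normal and 61.7, 69.7 and 65.7 CPM in WT normal libraries, and Uqcr11 had 102, 105 and 115 CPM in KO normal and 73.4, 73.7 and 70.2 CPM in WT normal libraries. Uqcrh, the hinge protein that helps cytochrome c to dock, had 114, 117 and 113 CPM in KO normal and 87.0, 80.1 and 75.01 CPM in WT normal libraries. For all of these the KO normal libraries lay above the WT normal ones without overlap. The differences were 0.65 (SE 0.091, limma adjusted p = 0.0037) for Uqcr10, 0.57 (SE 0.082, limma adjusted p = 0.0043) for Uqcr11 and 0.51 (SE 0.081, limma adjusted p = 0.0080) for Uqcrh. Uqcrq rose by 0.42, and Uqcrb, which binds ubiquinone, had a difference of 0.36 that was not called (limma adjusted p = 0.058).

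The subunits that carry electrons or form the large matrix core were not called. Cyc1, which encodes cytochrome c1, had 173, 189 and 180.2 CPM in KO normal and 175, 161 and 155 CPM in WT normal libraries, which overlapped (0.14, SE 0.070). The gene for the Rieske iron-sulfur protein, Uqcrfs1, differed by 0.19, and those for the core proteins, Uqcrc2 and Uqcrc1, by 0.20 and 0.04. For Uqcrc1 the values were 351, 349 and 347 CPM in KO normal and 347, 328 and 344 CPM in WT normal libraries. The intervals of these differences reached from -0.01 to 0.30 for Cyc1 and from -0.06 to 0.14 for Uqcrc1.

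Complex IV had the largest share of calls. Cox6b1, which encodes a subunit on the side where cytochrome c binds, had 203, 189.7 and 206 CPM in KO normal and 147, 149 and 147 CPM in WT normal libraries. Cox7c had 129, 118 and 116 CPM in KO normal and 78.4, 81.5 and 89.5 CPM in WT normal libraries, and Cox6c had 174, 164 and 176 CPM in KO normal and 122, 132 and 129.6 CPM in WT normal libraries. In each the KO normal libraries were above the WT normal ones without overlap. The differences were 0.43 (SE 0.060, limma adjusted p = 0.0035) for Cox6b1, 0.54 (SE 0.083, limma adjusted p = 0.0058) for Cox7c and 0.42 (SE 0.065, limma adjusted p = 0.0060) for Cox6c. Cox7a2 (0.49), Cox7b (0.43), Cox8a (0.35), Cox4i1 (0.34) and Cox5b (0.32) also rose. Cox4i1 encodes the ubiquitous form of the regulatory subunit 4, and Cox5b a zinc-binding subunit on the matrix side. Cox6a1 (0.21), Cox5a (0.11) and Cox7a2l (0.32) were not called. Cox7a2l is known for a role in supercomplexes of complexes III and IV, and whether its product has that role in these cells was not measured.

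In ATP synthase the calls fell in different parts of the enzyme. Atp5e, the smallest subunit of the catalytic head, had 127, 122 and 134 CPM in KO normal and 78.2, 80.9 and 82.9 CPM in WT normal libraries. Its difference, 0.66 (SE 0.074, limma adjusted p = 0.0012), had the smallest p of the 39 genes. Atp5l, a membrane subunit linked to pairing of the enzyme, had 58.9, 51.0 and 55.1 CPM in KO normal and 38.4, 38.8 and 35.8 CPM in WT normal libraries, a difference of 0.55 (SE 0.10, limma adjusted p = 0.021). Atp5f1, subunit b of the peripheral stalk, had 276, 273 and 281 CPM in KO normal and 206, 216 and 220.0 CPM in WT normal libraries, a difference of 0.37 (SE 0.056, limma adjusted p = 0.0055). None of these overlapped between genotypes. The difference of Atp5f1 was 0.34 (limma adjusted p = 0.038) with the length trend of the principal transcript removed. That of Atp5e was then 0.37 (limma adjusted p = 0.070) and that of Uqcr10 0.36 (limma adjusted p = 0.14).

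The large subunits of the catalytic head, alpha and beta, did not share this difference. Atp5b, which carries the catalytic sites, had 1372, 1337 and 1337 CPM in KO normal and 1372, 1276 and 1276 CPM in WT normal libraries (0.04, interval -0.06 to 0.15). Atp5a1 had 1014, 988 and 971 CPM in KO normal and 1125, 1049.5 and 1073 CPM in WT normal libraries, with every KO normal library below every WT normal one, a pattern of 8.64% of all genes (-0.13, limma adjusted p = 0.12, not called). The same held for Atp5sl, which encodes a protein known to take part in complex I assembly, at 42.5, 40.5 and 42.3 CPM in KO normal and 52.5, 50.01 and 49.0 CPM in WT normal libraries (-0.28, limma adjusted p = 0.25). Atp5a1 and Atp5sl were chosen for these sentences after their values were seen. The other head genes, Atp5c1 and Atp5d, differed by 0.16 and 0.06, and the remaining stalk and membrane genes by 0.23 to 0.52, of which Atp5k came nearest to a call (0.52, limma adjusted p = 0.054).

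**Figure D2:**
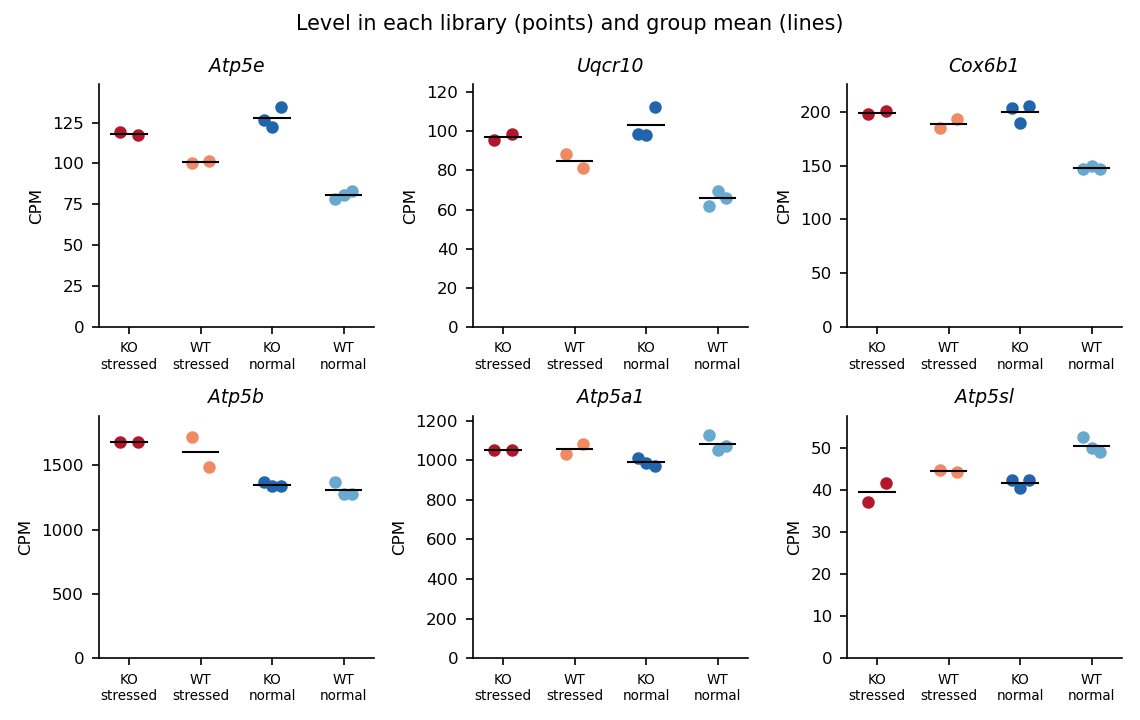
Level in CPM of 6 of the genes in each library, with group means as lines, for KO stressed, WT stressed, KO normal and WT normal HSCs. For Atp5e, Uqcr10 and Cox6b1 the WT normal libraries are the lowest, Atp5b is higher in both stressed groups, and Atp5a1 and Atp5sl have their highest group mean in WT normal HSCs.

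Across the genes, the difference between KO normal and WT normal HSCs fell with coding length (Pearson r = -0.72, Spearman rho = -0.75 over 39 genes), against r = -0.16 and rho = -0.34 over the 12677 tested genes with an annotated principal transcript. These correlations are across genes, which share the same libraries. The 25 genes of at most 500 coding bases had a median difference of 0.37 and the 14 longer ones 0.18. The calls with the shortest coding sequences were Atp5e (156 bases) and Uqcr11 (168 bases), while Atp5a1 (1659 bases) and Atp5b (1587 bases) are the longest of the 39.

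**Figure D3:**
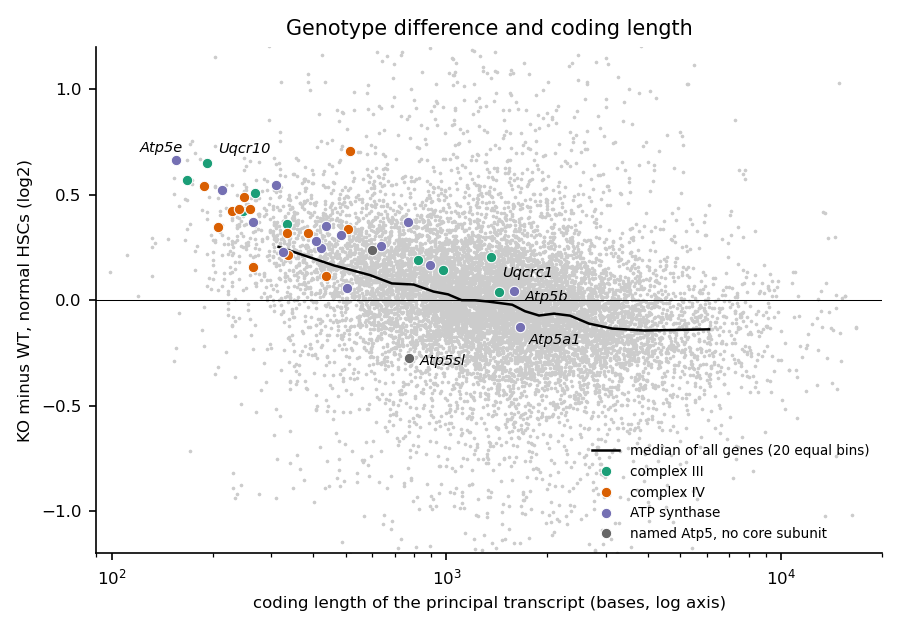
Difference between KO and WT normal HSCs (log2) against coding length in bases (log axis) for the 39 genes, coloured by complex, over all tested genes in grey; the black line is the median of all genes in 20 bins of equal size. Short genes lie higher among all genes and among the 39.

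In stressed HSCs no subunit gene passed the test between genotypes. By limma, 0 of 39 were called between KO stressed and WT stressed HSCs, where 0.145% of all genes were called in either direction, and 5 had an unadjusted p under 0.05 (Cox7b, Cox6c, Atp5e, Atp5j2 and Cox7c), near the 8.88% of all genes. The median difference was 0.07, against 0 over all genes, and -0.02 with the length trend of the principal transcript removed. In 17 genes both KO stressed libraries lay above both WT stressed libraries, against 19.2% of all genes.

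Cox7b, a small subunit of complex IV, had the smallest p, with 120.4 and 112 CPM in KO stressed and 92.0 and 86.9 CPM in WT stressed libraries (0.38, SE 0.093, limma adjusted p = 0.26). Cox6c had 169 and 169.8 CPM in KO stressed and 140.2 and 142 CPM in WT stressed libraries (0.27, SE 0.079, limma adjusted p = 0.34). Atp5e had 119 and 117 CPM in KO stressed and 100.1 and 101 CPM in WT stressed libraries (0.23, SE 0.090, limma adjusted p = 0.49). None of these overlapped, and none was called. With 2 libraries a group, the interval of a difference remained wide: that of Cox7b reached from 0.17 to 0.58 and that of Atp5e from 0.03 to 0.43.

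From normal to stressed, WT and KO HSCs were each compared, and these comparisons share the normal libraries with the genotype comparison above. In WT HSCs 6 of 39 genes rose with stress by limma, where 1.55% of all genes were called higher, and 0 fell, where 1.75% of all genes were called lower. In 30 genes both WT stressed libraries lay above all 3 WT normal libraries, against 19.7% of all genes, the median difference was 0.21, against 0.01 over all genes, and 23 genes had an unadjusted p under 0.05, against 16.8% of all genes. In KO HSCs 1 of 39 rose, where 2.23% of all genes were called higher, and 0 fell, where 2.28% were called lower, with a median of -0.05 and 6 genes at an unadjusted p under 0.05, a share below the 17.9% of all genes. Every KO stressed library was above every KO normal one in 7 genes (16.5% of all genes) and below in 10 (16.6% of all genes).

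Atp5b was the gene called in both genotypes. It had 1679 and 1679 CPM in KO stressed and 1372, 1337 and 1337 CPM in KO normal libraries (0.32, SE 0.054, limma adjusted p = 0.0071), and 1721 and 1489 CPM in WT stressed and 1372, 1276 and 1276 CPM in WT normal libraries (0.29, SE 0.054, limma adjusted p = 0.013). The equal values in both KO stressed libraries follow from equal ranks under the normalization, so that the SE is understated there. With the length trend of the principal transcript removed, the difference in WT HSCs was 0.32 (limma adjusted p = 0.0068). The call in KO HSCs was lost without KO stressed A or KO stressed B, and with no trend in the variance. The call in WT HSCs was lost without WT stressed A, where the difference was 0.19, without WT normal B or WT normal C, with only the libraries compared, and with no trend in the variance.

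The other rises in WT HSCs were in Cox6b1, Cox6a1, Cox8a, Atp5g3 and Uqcrc1. Cox6b1 had 185 and 194 CPM in WT stressed and 147, 149 and 147 CPM in WT normal libraries (0.36, SE 0.067, limma adjusted p = 0.015), and Cox8a had 225 and 226 CPM in WT stressed and 190.4, 186 and 182 CPM in WT normal libraries (0.28, SE 0.063, limma adjusted p = 0.035). Uqcrc1 had 401 and 389 CPM in WT stressed and 347, 328 and 344 CPM in WT normal libraries (0.22, SE 0.050, limma adjusted p = 0.039). In KO HSCs Cox6b1 had 198 and 201 CPM when stressed and 203, 189.7 and 206 CPM when normal, which overlapped, and Uqcrc1 had 396 and 383 CPM when stressed and 351, 349 and 347 CPM when normal (0.16, limma adjusted p = 0.11). Atp5b and Uqcrc1 kept their call in WT HSCs with the length trend of the principal transcript removed, and the other 4 lost it. With the trend over total exonic length removed, 5 were called, of which 2 were among the 6. The count of 6 became 0 without WT stressed A or WT normal C, 1 without WT normal A or B, 2 without WT stressed B, KO stressed A or KO stressed B, and 3 without KO normal C; with no trend of the variance over the mean level it was also 0.

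The complex III subunit gene Uqcr11 had 92.0 and 87.7 CPM in KO stressed and 102, 105 and 115 CPM in KO normal libraries, without overlap (-0.26, SE 0.091, limma adjusted p = 0.16), and 85.7 and 85.1 CPM in WT stressed and 73.4, 73.7 and 70.2 CPM in WT normal libraries (0.24, limma adjusted p = 0.20). Neither was called. The difference between the change in KO and the change in WT HSCs was then tested for each gene (the interaction). By limma 0 of 39 were called, where 0.0198% of all genes were called in either direction, and 16 had an unadjusted p under 0.05, against 9.15% of all genes. The smallest p belonged to Cox8a (-0.38, SE 0.089, limma adjusted p = 0.23), Uqcr11 (-0.50, SE 0.13, limma adjusted p = 0.26) and Cox6b1 (-0.36, SE 0.095, limma adjusted p = 0.27). The difference was below 0 in 36 of 39 genes, with a median of -0.23 against -0.004 over all genes, and -0.17 with the length trend of the principal transcript removed.

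The comparisons that use the WT normal libraries share the low level in those libraries. WT normal HSCs had the lowest group mean in 35 of 39 genes, KO normal HSCs the highest in 23 and KO stressed HSCs in 11. In 26 of 39 genes all 3 WT normal libraries lay below every library of the other 3 groups, which held for 4.38% of all genes. Averaged over the 39 genes, the deviation from the gene mean was 0.086 to 0.097 log2 units in KO stressed, 0.0014 to 0.0096 in WT stressed, 0.093 to 0.16 in KO normal and -0.20 to -0.18 in WT normal libraries. The length trend over all genes, read at 500 bases, was also lowest in the WT normal libraries. It was 0.14 to 0.18 in KO stressed, -0.08 to 0.01 in WT stressed, 0.04 to 0.13 in KO normal and -0.19 to -0.16 in WT normal libraries. This pattern was chosen after the values were seen, and the part of the length trend in it was not tested beyond the removal given above.

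**Figure D4:**
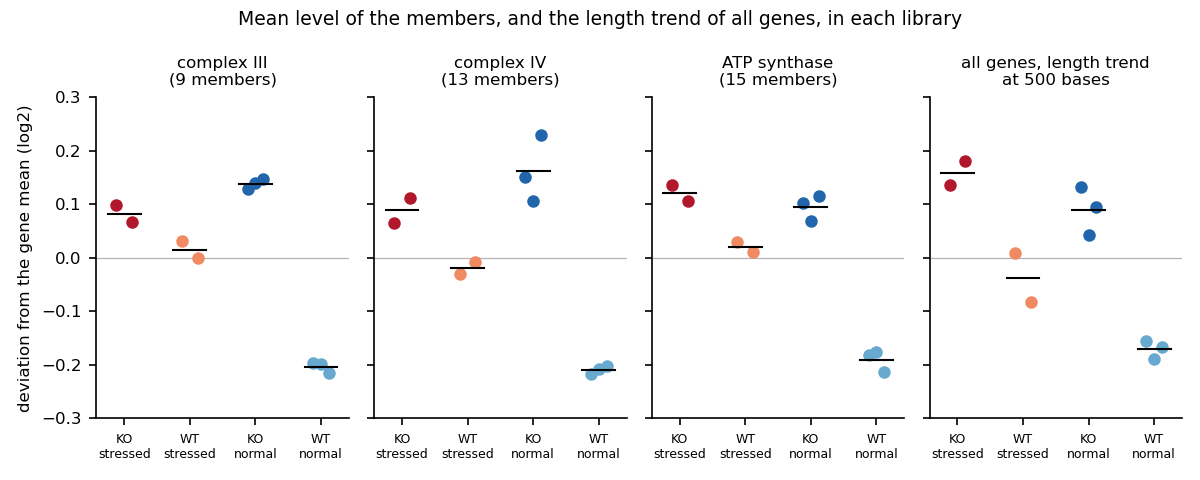
Mean deviation from the gene mean (log2) in each library for the members of complex III, complex IV and ATP synthase, and, at the right, the trend of all genes over principal transcript length read at 500 bases; lines are group means. The WT normal libraries are lowest in all 4 panels, at -0.22 to -0.16.

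**Figure D5:**
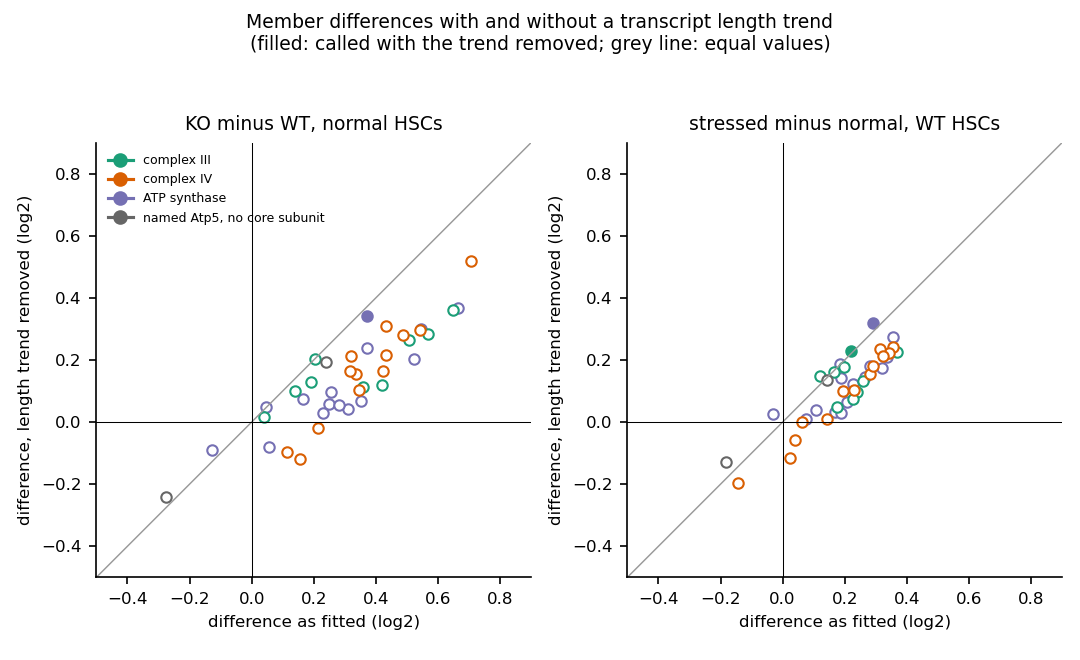
Difference of each of the 39 genes with the trend over principal transcript length removed (vertical, log2) against the difference without removal (horizontal, log2), for KO against WT normal HSCs (left) and stressed against normal WT HSCs (right); filled points are called with the trend removed. On the left 1 gene (Atp5f1) and on the right 2 (Atp5b and Uqcrc1) are filled, and most points lie below the grey line of equal values.

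Per kilobase of principal transcript, levels spread over more than 2 orders of magnitude. Atp5b was highest with 759 CPM per kilobase on average over the 10 libraries, followed by Atp5a1 (422), Cox8a (393), Atp5h (386) and Cox4i1 (362), and Uqcrb was the highest of complex III (249). The lowest were Cox4i2 (2.94), Atp5sl (18.6) and Atp5s (22.7). Cox4i2, the isoform of subunit 4 known from lung and low oxygen, reached 0.518 to 1.36% of Cox4i1 per kilobase over the libraries. It had 1.59 and 2.15 CPM in KO stressed, 1.43 and 2.21 CPM in WT stressed, 2.05, 2.68 and 4.07 CPM in KO normal and 1.55, 2.08 and 1.59 CPM in WT normal libraries, which overlapped. Cox4i2 lies on chromosome 2 (152754173 to 152765037, mm10), 16763 bases from Id1.

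Cox6b2, known as the testis form of subunit 6B, was present in every library at 18.7 to 29.2% of Cox6b1 per kilobase. It had 28.0 and 29.1 CPM in KO stressed, 29.5 and 32.4 CPM in WT stressed, 31.4, 35.5 and 35.0 CPM in KO normal and 29.9, 29.1 and 32.3 CPM in WT normal libraries, and was called in no comparison. The c subunit of the rotating ring is made from Atp5g1, Atp5g2 and Atp5g3, which encode the same mature protein. Of their summed level per kilobase, Atp5g3 gave 37.4 to 43.5%, Atp5g1 33.7 to 38.9% and Atp5g2 21.8 to 26.1% over the libraries. The share of Atp5g3 was 40.8 to 43.5% in KO stressed and 37.4 to 38.9% in KO normal libraries. It was 39.6 to 40.2% in WT stressed and 39.1 to 39.4% in WT normal libraries. The stressed libraries lay above the normal ones without overlap in both genotypes. For gene levels, such a pattern held for 16.5% of all genes in KO and 19.7% in WT HSCs. Differences of these shares were not tested.

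Reads could be shared with other genes for some of the 39. For 16 a transcript from elsewhere in the genome matched at 95% identity or more over 100 bases or more, but only for Uqcr10 did such copies reach 10% of its own level (22.0%, 19.2 CPM), so that its level is uncertain. By the same limits of identity and length, 6 genes overlap another measured gene on the opposite strand (Atp5f1, Atp5j, Atp5l, Cox4i1, Cox5a and Uqcrc2). Shorter overlaps were not sought. Whether counting used strand is not given in the sources used here. Wdr77, which overlaps the call that outlasted length removal, Atp5f1, stood at 113 CPM on average, against 249 CPM for Atp5f1.

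Several mtDNA-encoded subunits, the partners of these genes in the same complexes, fell with stress. Of 6 tested, 3 were called lower in KO HSCs and 4 in WT HSCs, while 2 (mt-Co1 and mt-Co3) were higher in KO normal than in WT normal HSCs. In KO HSCs 1 of the 6, mt-Atp8, went the other way and was not called. It had 3.91 and 2.85 CPM in KO stressed and 0.32, 0.83 and 0.65 CPM in KO normal libraries. The levels of mt-Co2 (3.83 to 15.7 CPM) and mt-Atp6 (2.60 to 11.4 CPM) were also low. Copies elsewhere in the genome were sought only for the 39 nuclear genes, so whether reads of these mtDNA genes were shared with copies was not tested. mt-Co1, the catalytic subunit of complex IV, had 971 and 1003 CPM in KO stressed and 1058 and 1049.5 CPM in WT stressed libraries, and 3687, 3687 and 3687 CPM in KO normal and 2443, 2613 and 2443 CPM in WT normal libraries. Its difference with stress was -1.90 in KO HSCs and -1.25 in WT HSCs, both called. mt-Cytb, the mtDNA-encoded core of complex III, had 1417 and 1417 CPM in KO stressed and 1312 and 1337 CPM in WT stressed libraries, and 2848, 3112 and 3112 CPM in KO normal and 2848, 2848 and 2848 CPM in WT normal libraries. Its difference with stress was -1.09 in KO and -1.10 in WT HSCs, both called. In the same stressed libraries Atp5b was higher and no nuclear gene of the 39 was called lower. Equal values within a group come from equal ranks, and SEs are then understated.

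Of 4 other nuclear subunits and carriers of these complexes outside the symbol rule, 3 were called higher in KO normal than in WT normal HSCs: Usmg5 (0.76), Ndufa4 (0.40) and 2010107E04Rik (0.55), and cytochrome c itself, Cycs, was not (0.43, limma adjusted p = 0.10). Usmg5, a small membrane subunit of ATP synthase, had 107, 121 and 116 CPM in KO normal and 67.02, 70.2 and 66.6 CPM in WT normal libraries. Ndufa4, a subunit of complex IV, had 207, 189 and 189 CPM in KO normal and 149, 147 and 149 CPM in WT normal libraries. The ATP synthase inhibitor gene Atpif1 rose in KO normal against WT normal HSCs (0.49) and in stressed against normal WT HSCs (0.35).

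Of the genes that build or inhibit the complexes or drive their transcription, Atpif1 was the only one called in any of the 5 comparisons. By limma 0 of 6 complex III assembly genes, 0 of 22 complex IV assembly genes and 0 of 11 transcription factors and coactivators (among them Nrf1, Gabpa, Yy1 and Tfam) were called in any of the 5 comparisons, and 2 of 30, 15 of 110 and 4 of 55 single tests had an unadjusted p under 0.05, against 13.3% of the tests over all genes. In KO normal against WT normal HSCs alone, 1 of 6, 7 of 22 and 1 of 11 had an unadjusted p under 0.05, against 13.9% of all genes. Their differences there were above 0 in 5 of 6, 16 of 22 and 6 of 11, against 48.5% of all genes. The medians of these differences were 0.18, 0.20 and 0.05. Of 5 genes of ATP synthase assembly and inhibition, 1 was called, Atpif1. Over the 10 libraries the genes outside the 39 whose pattern was closest to the mean pattern of the 39 were Esd (r = 0.98), Hint1 (0.98), Atpif1 (0.98), Rps16 (0.98) and Psmb4 (0.98), given as a description.

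Marker genes moved between the same groups. In KO normal against WT normal HSCs, 1 of 9 tested myeloid progenitor and granulocyte markers was called higher (Mpo, 2.27), and 2 of 12 HSC markers were called lower, among them Kit (-0.31). With stress, 4 HSC markers were called lower and 1 higher in KO HSCs, and 4 lower and 1 higher in WT HSCs; Hlf was called lower in both. The summed HSC markers stood at 3360 to 3417 CPM in KO stressed, 3656 to 3742 CPM in WT stressed, 3867 to 4055 CPM in KO normal and 4429 to 4731 CPM in WT normal libraries. All 5 cycling markers were called higher with stress in both genotypes, and the B and plasma cell markers Igkc and Jchain were called higher in KO stressed than in WT stressed and than in KO normal HSCs. Of 4 megakaryocyte markers, 2 (Pf4 and Itga2b) were called higher with stress in both genotypes. Of 7 erythroid markers, Car1 was called lower with stress in both genotypes, Hba-a1 was called lower in WT HSCs and Gata1 was called higher in KO HSCs. S100a8 and S100a9, of the myeloid list, were called lower with stress in KO HSCs, and Nkg7, the 1 tested marker of T and NK cells, was called higher with stress in both genotypes. Of the other genes on that list, Cd3e and Cd3g had no values and Trbc1 lay at 0.02 to 0.83 CPM. Nkg7 alone therefore does not show T or NK cells. The part of these differences in the subunit levels was not tested.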

How the data were processed

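Total RNA of 10 libraries of sorted HSCs was sequenced, per the labels' protocols. The submitters' processing notes name Bowtie2, featureCounts and the mouse build mm10, without versions. The authors deposited log2 CPM values (read counts scaled to a common total, on a log2 scale), with limma voom named only in the table's own name. All libraries share one set of values, so they were quantile normalized before deposit, as the values show: equal ranks then give equal values, and a shift common to all genes cannot be seen. Depth was estimated from the steps between low values.

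Genes with a log2 value above 0 in at least 2 libraries were tested (15143). Means of 4 groups were fitted to all 10 libraries with limma 3.58.1 (R 4.3.3), with no replicate block, moderated variances that follow the mean level, and Benjamini-Hochberg adjustment over all genes tested. A gene was called at an adjusted p under 0.05. The model was tested on simulated data. No pseudocount was added, and CPM values in the text are 2 to the power of the deposited values. Lengths and coordinates come from GENCODE vM21 (mm10), copies from blastn 2.17.0, and promoters from RefSeq (GRCm38.p6). The replicate letters A, B and C are not stated to pair libraries.

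The members, gene lists and tests were chosen with earlier results of these data known. Values in every library are given for the 3 genes with the smallest p per complex between KO and WT normal HSCs, the 3 with the smallest p in each other comparison, isoforms and Cyc1, besides genes said to be chosen after their values were seen. Alternatives covered the variance trend, the filter, a pseudocount of 1 CPM, centring, library weights, gene length, pseudogenes and copies, a replicate block, the libraries fitted, and leaving out each library. The 2 alternatives on principal transcript length and on near-identical copies were added after seeing the data. The values of 1 marker gene are not reported here.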

Additional observations from a re-analysis of the deposited data

Results flagged for a closer look

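Among genes that encode subunits of these complexes, 1 had a stress response that differed between genotypes by the test of the difference itself. The change of mt-Co1 with stress, which is encoded in mtDNA and is not one of the 39 nuclear genes, differed by -0.66 on the log2 scale between KO and WT HSCs (interaction, KO minus WT, SE 0.046, limma adjusted p = 0.00024), from a change of -1.90 in KO HSCs and of -1.25 in WT HSCs. All 3 KO normal libraries hold the same value for it, so that this SE is understated.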

How the results depend on the processing

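Between KO and WT normal HSCs, 15 genes were called, 3 with no trend of the variance over the mean level and 1 with the length trend of the principal transcript removed (added after seeing the data), and 8 to 14 when 1 library was left out. For stressed against normal KO HSCs, 1 was called, 0 with no trend of the variance, and 0 to 1 when 1 library was left out. For stressed against normal WT HSCs, 6 were called, 0 with no trend of the variance, 3 with no filter on low values, 2 with the length trend of the principal transcript removed, 1 with only the libraries compared, and 0 to 7 when 1 library was left out. With a replicate block, as if letters paired the libraries, 11 were called between KO and WT normal HSCs and 1 for stressed against normal WT HSCs. Deviations of same-letter libraries from their group means had correlations of -0.024 to 0.037 (13 pairs, 0 of them over 0.1). In a group of 2 libraries the deviations mirror each other, so these pairs are not independent. Whether the letters pair libraries therefore cannot be decided from them. The 2 comparisons with no call had none under any alternative run. No single called gene changed direction under any alternative, while the median between stressed genotypes was 0.07 as reported and -0.02 with the length trend of the principal transcript removed. Atp5e, Uqcr10, Uqcr11 and Atp5f1 each lost the call between KO and WT normal HSCs under 1 of 22 alternatives, and Cox5b under 16. Beyond length removal, the cause of these changes was not tested. With 2 or 3 libraries a group and no statement of separate animals, small differences could not be detected, and quantile normalization leaves no view of a change in total mRNA.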
